A study of Mus musculus with 6 samples.

Results

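Connective tissue of the mouse colon was described through 37 genes of fibroblasts and of the extracellular matrix they make, chosen by name: 12 collagens, 15 elastic fibre, proteoglycan and related matrix genes, and 10 fibroblast markers. Each gene was read from the probe set annotated to it alone that was brightest on average across the 6 arrays. This gave 36 measured genes of 18193 in all. Fbn1 had no such probe set and is not analysed here. Samples came from untreated C57BL/6J females, an inbred laboratory strain, with no other genotype, treatment or age given in the labels, and the study compared the proximal with the distal part of the large intestine. Per the design text 3 animals gave both parts, which made 3 proximal and 3 distal libraries by label, each on 1 array. Total RNA of pieces of tissue was measured, so all cell types of the wall contribute, and fewer cells of a type and less RNA per cell cannot be told apart.

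As background, the matrix of the gut wall is built mainly by fibroblasts of the lamina propria and submucosa and by smooth muscle cells. Fibrillar collagens give it tensile strength, type IV collagen forms the sheet of the basement membrane, and type VI collagen forms beaded filaments between them. Elastic fibres consist of elastin on a scaffold of microfibrils and fibulins. Small leucine-rich proteoglycans bind collagen fibrils and set their width, and lysyl oxidases crosslink collagen and elastin.

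A pair of libraries went against its labels, which bears on every value below. Hoxb13 is a transcription factor gene used in the tail end of the embryo. Its values were 6.53 and 6.48 for the labels proximal 2 and 3 but 13.78 and 13.29 for distal 1 and 2, on the log2 scale used throughout. It measured 13.39 in the library labelled proximal 1 and 6.65 in that labelled distal 3. Each comparison is therefore given as labelled and again without the libraries labelled proximal 1 and distal 3. The second form was set with earlier results of these data known, its p-values describe only those 4 libraries, and nothing was assigned to another label. Medians over all probe sets ran from 7.90 to 8.02 among arrays, and precision is limited by how few arrays there were. The 12 epithelial markers measured 11.93 to 14.66 and the 14 smooth muscle markers 8.92 to 14.48 in every library, so mucosa and muscle were both present.

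As labelled, no difference between distal and proximal libraries passed for any matrix or fibroblast gene. Values of the 36 genes lay between 7.20 and 13.74. The difference, distal minus proximal, ran from -0.44 for Efemp1 to 0.40 for Fn1, with a median of -0.02, and the median of all genes was also -0.02. By limma 0 of 36 passed at an adjusted p of 0.05, against 0 of all genes (0%). At an unadjusted p of 0.05 there were 0 of the 36 and 554 of all genes, and the smallest unadjusted limma p among the 36 was 0.0557, for Thy1. The 95% interval of the difference lay within 1 log2 unit of 0 for 32 of the 36, with a median half-width of 0.37. The labelled groups were fully separate for 4 of the 36 (11.1%), against 7.33% of all genes. These were Col6a1 (difference 0.25) and Col6a3 (0.22), higher in all 3 distal libraries, and Pdgfra (-0.18) and Thy1 (-0.30), lower in all 3.

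**Figure D1:**
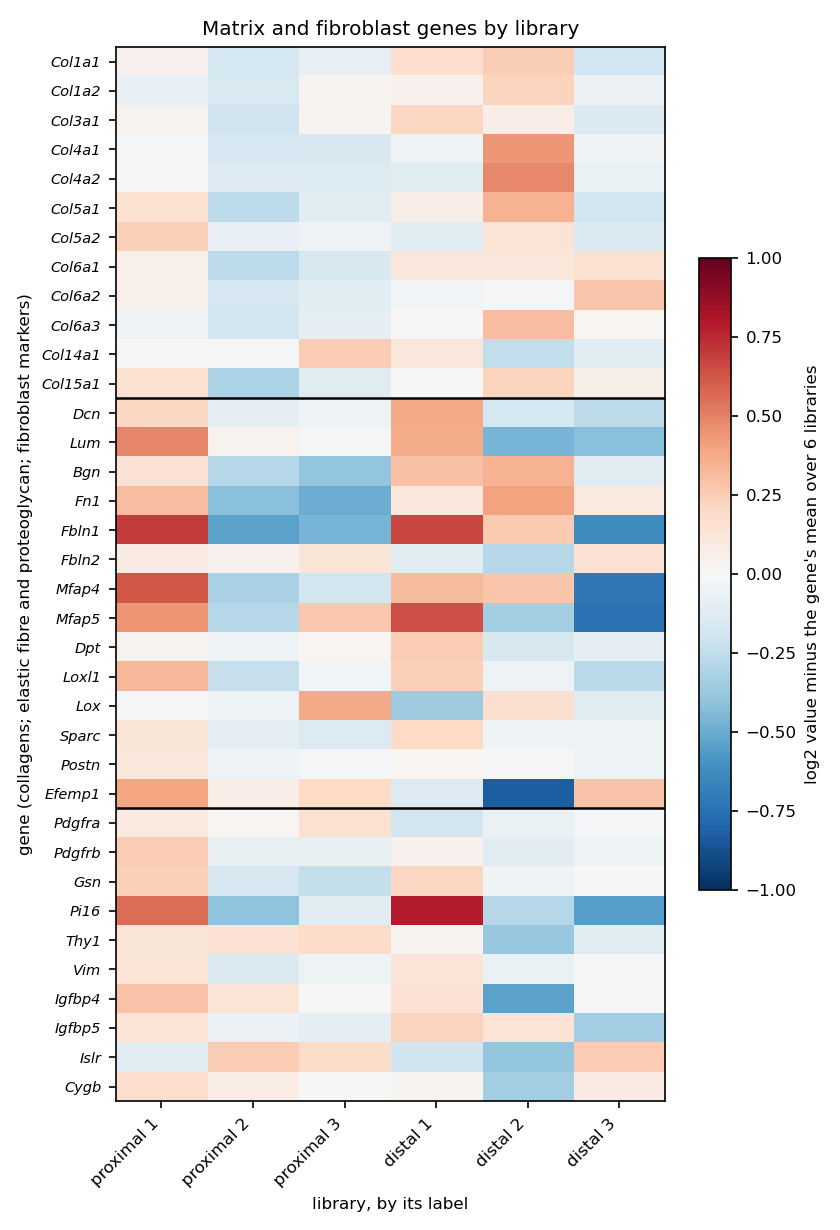
Each row is 1 of the 36 measured genes and each column 1 library by its label; colour is the log2 value minus the gene's mean over the 6 libraries, clipped at 1 on either side, and black lines part collagens, elastic fibre and proteoglycan genes, and fibroblast markers. Fbln1 and Mfap4 are high in proximal 1, distal 1 and distal 2, and Mfap5 is highest in proximal 1 and distal 1. Col4a1 and Col4a2 are highest in distal 2, and most other rows are pale.

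Without the libraries labelled proximal 1 and distal 3, 4 genes of the elastic fibre and proteoglycan group were higher in distal 1 and 2 than in proximal 2 and 3, and 1 fibroblast marker was lower. Fbln1, Fn1, Bgn and Mfap4 differed by 0.97, 0.71, 0.66 and 0.55, and Islr by -0.51. Of the 36 genes 5 (13.9%) passed by limma at an adjusted p of 0.05, where 19.2% of all 18193 genes did. In the distal direction the share was 4 of 36 (11.1%) against 7.71% of all genes, and in the proximal direction 1 of 36 (2.78%) against 11.5%. The differences ran from -0.61 to 0.97 with a median of 0.18, against -0.05 for all genes. By the probe sets used, none of the 36 reached a difference of 1, which 6.59% of all genes did. Dimmer probe sets of Fn1 and Dcn differed by 1.22 and 1.15. The 4 to 1 split became 4 to 0 after quantile normalization and 5 to 0 after centring each array on its median. Among all called genes 40.1% had the higher level in distal 1 and 2, a share that quantile normalization turned into 50.3% and centring into 54.7%. With 1 of the 4 libraries left out the count was 0 when that library was proximal 2, proximal 3 or distal 2. Leaving out distal 1 kept 2 calls, Fbln1 and Fn1. Such a fit has 1 residual degree of freedom and assumes that the lone library varies like the pair of the other label.

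**Figure D2:**
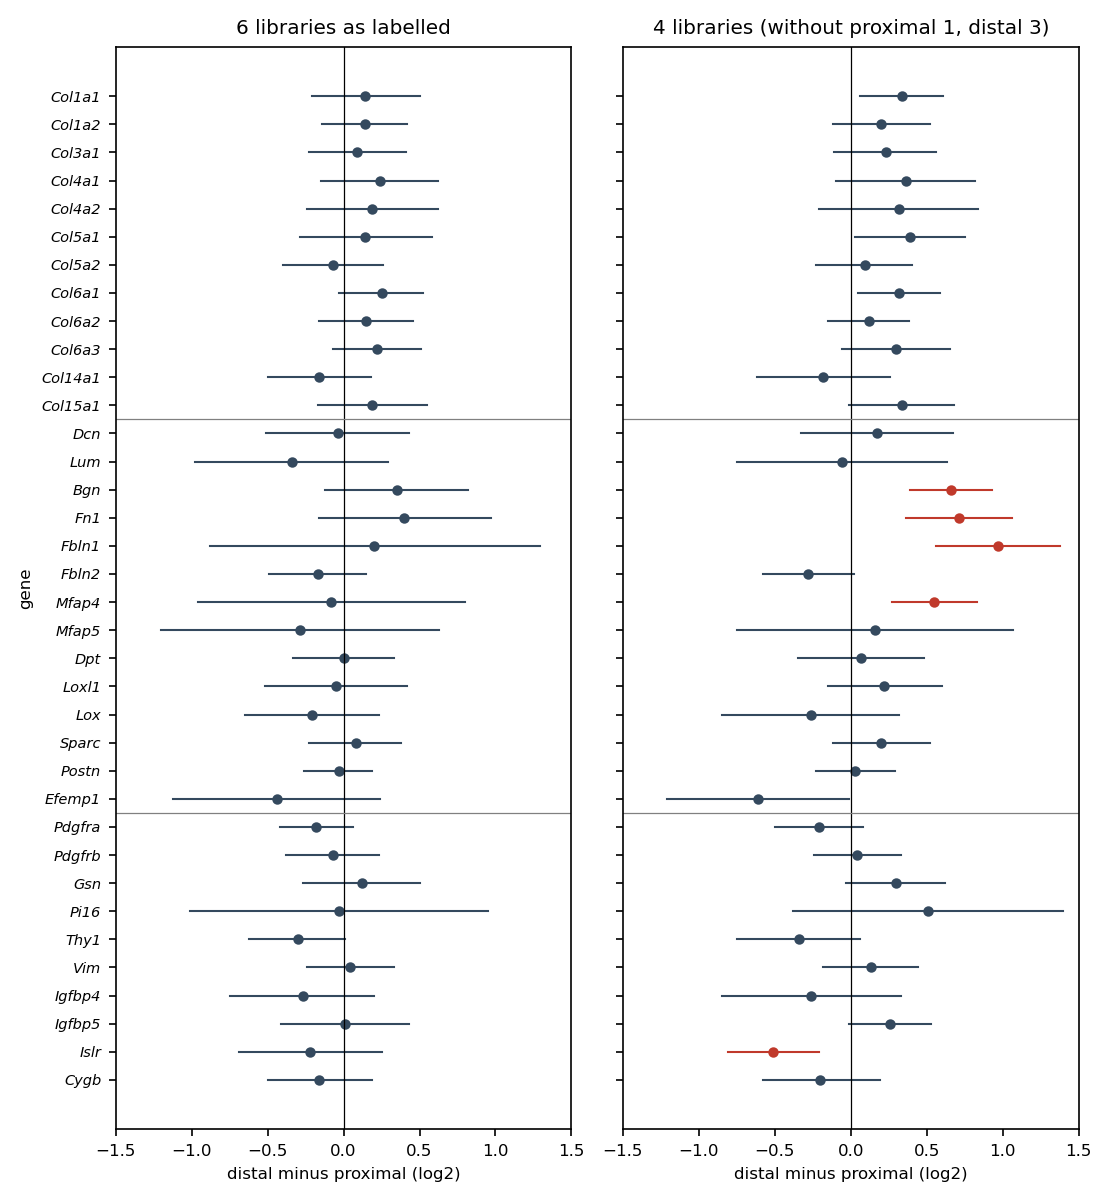
Points are distal minus proximal differences in log2 units for the 36 genes and bars their 95% limma intervals, for the 6 libraries as labelled (left) and for the 4 libraries without proximal 1 and distal 3 (right); red marks an adjusted p under 0.05. In the left panel no gene is red, and in the right panel Bgn, Fn1, Fbln1 and Mfap4 lie above 0 and Islr below.

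Fbln1 encodes fibulin-1, a calcium-binding glycoprotein of basement membranes and elastic fibres. It measured 11.08, 9.84 and 9.91 in proximal 1, 2 and 3, and 11.05, 10.64 and 9.75 in distal 1, 2 and 3, by label. Proximal 1 lay with distal 1 and 2, and distal 3 lay below all others. As labelled the means were 10.28 ± 0.70 (SD, n = 3) in proximal and 10.48 ± 0.66 (SD, n = 3) in distal libraries. They differed by 0.20 (SE 0.45, limma adjusted p = 0.906). In the 4 libraries the difference was 0.97, or 1.96-fold (SE 0.16, limma adjusted p = 0.017). Its other probe sets differed by 0.97 and 0.81 in the same 4 libraries. By the probe set used, its highest values were in proximal 1 and distal 1, while a dimmer probe set had 10.37 in proximal 1 and 10.43 in distal 2. Proximal 1 and distal 1 had high pancreatic acinar markers (median deviations of 4.10 and 4.25), whose part in this result was not tested. Fbln1 starts on chromosome 15 of the assembly GRCm38.p6, and the window chr15:85205699-85205998 on the plus strand is shown because this gene had the largest 4-library difference of the 36. It runs from 250 bases before to 50 bases after the RefSeq start, all in lower case as it holds on neither strand a CCAAT box (letters CCAAT), a GC box (letters GGGCGG) or a TATA box (letters TATAAA):
Fbln1: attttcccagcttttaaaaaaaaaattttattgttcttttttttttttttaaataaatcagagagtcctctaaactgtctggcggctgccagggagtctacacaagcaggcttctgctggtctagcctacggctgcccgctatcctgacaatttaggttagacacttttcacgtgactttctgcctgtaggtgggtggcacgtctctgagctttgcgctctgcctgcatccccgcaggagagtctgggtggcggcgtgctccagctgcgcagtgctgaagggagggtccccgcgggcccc

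Fn1 encodes fibronectin, a large glycoprotein that binds integrins and collagen. It measured 12.42, 11.70 and 11.62 in proximal 1, 2 and 3, and 12.22, 12.52 and 12.21 in distal 1, 2 and 3. Proximal 2 and 3 were low and the other 4 libraries high, so here distal 3 kept to its label. The difference was 0.40 as labelled (SE 0.23, limma adjusted p = 0.824) and 0.71 in the 4 libraries (SE 0.14, limma adjusted p = 0.026). The other probe set of Fn1 differed by 1.22 in the 4 libraries.

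Bgn encodes biglycan, a small leucine-rich proteoglycan of collagen fibrils. It measured 12.11, 11.68 and 11.57 in proximal 1, 2 and 3, and 12.26, 12.31 and 11.85 in distal 1, 2 and 3. The labelled groups overlapped through proximal 1, which exceeded distal 3. The difference was 0.35 as labelled (SE 0.19, limma adjusted p = 0.824) and 0.66 in the 4 libraries (SE 0.11, limma adjusted p = 0.0161), where the other probe sets differed by 0.76 and 0.69.

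Mfap4 encodes a glycoprotein of the microfibrils of elastic fibres. It measured 9.74, 8.80 and 8.94 in proximal 1, 2 and 3, and 9.44, 9.40 and 8.41 in distal 1, 2 and 3. Proximal 1 was the highest and distal 3 the lowest library, so the labelled difference was -0.08 (SE 0.36, limma adjusted p = 0.959). In the 4 libraries it was 0.55 (SE 0.11, limma adjusted p = 0.0282). Proximal 1 and distal 1, with the high acinar markers, again had the highest values. Distal 2, at 9.40, was close to the 9.44 of distal 1, and its acinar markers were low (median deviation -2.26). The part of acinar cells in the Mfap4 values was not tested.

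Islr encodes a surface protein of mesenchymal stromal cells with leucine-rich repeats. It measured 10.13, 10.49 and 10.42 in proximal 1, 2 and 3, and 10.04, 9.85 and 10.49 in distal 1, 2 and 3. It was the only one of the 36 genes in which proximal 1, distal 1 and distal 2 all lay below the other 3 libraries, a pattern of 23.7% of all genes. The difference was -0.22 as labelled (SE 0.19, limma adjusted p = 0.824) and -0.51 in the 4 libraries (SE 0.12, limma adjusted p = 0.0408). That call did not hold after quantile normalization (adjusted p = 0.0781) or centring (adjusted p = 0.082).

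**Figure D3:**
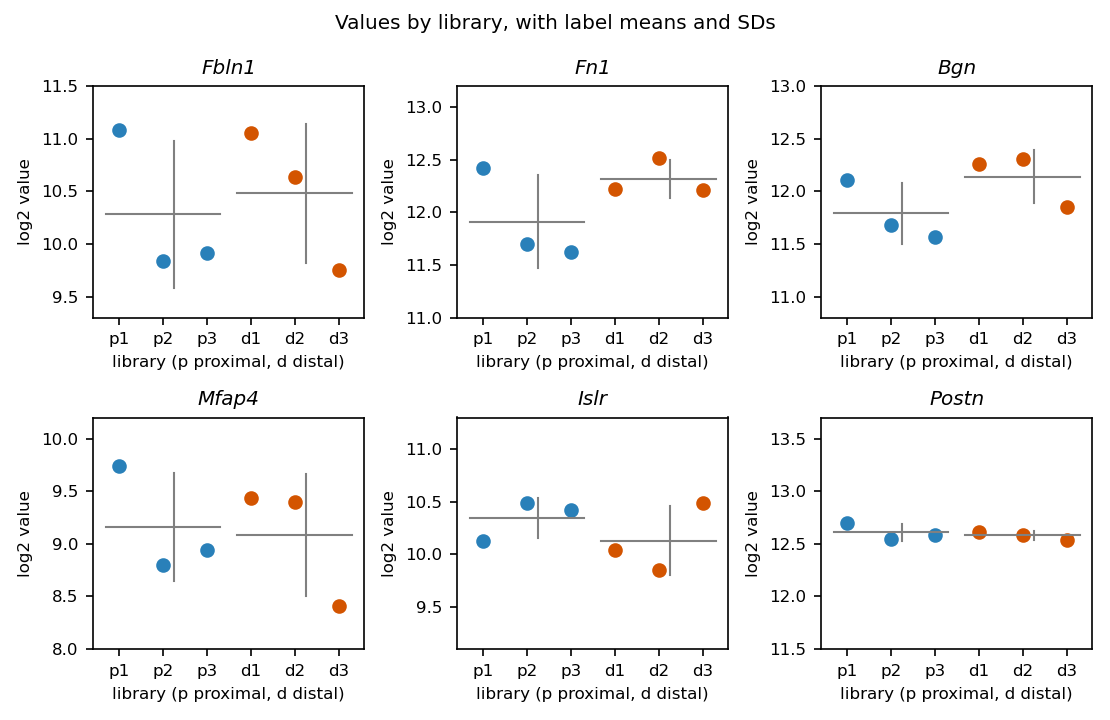
Points are log2 values of the 6 libraries (p proximal, blue; d distal, orange), grey lines the mean and SD (n = 3) of each labelled group, and every panel spans the same 2.2 log2 units. Fbln1, Bgn and Mfap4 put p1 with d1 and d2 and d3 near p2 and p3, Islr shows the reverse order, Fn1 is low in p2 and p3 alone, and Postn lies between 12.54 and 12.70 in all 6.

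Collagen differences were mostly above 0, toward distal libraries, but none passed the test in either form. As labelled 10 of 12 differences were above 0, with a median of 0.15, and in the 4 libraries 11 of 12, with a median of 0.31. Of all 18193 genes 8314 were above 0 as labelled (median -0.02) and 7932 in the 4 libraries (median -0.05). The collagen medians were 0.36 and 0.39 after quantile normalization and centring of the 4 libraries, against 0.01 and 0.04 for all genes. Of the 14 smooth muscle markers, 14 differences were above 0 as labelled (median 0.20) and 13 in the 4 libraries (median 0.27), and smooth muscle cells also make collagen; the part of muscle in the collagen values was not tested. Among the 12 collagens 0 passed by limma in the 4 libraries (19.2% of all genes did). Without distal 2 their median was 0.13 and without distal 1 it was 0.35.

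Among the fibrillar collagens, Col1a1, the alpha 1 chain of type I, measured 12.60, 12.38 and 12.47 in proximal 1, 2 and 3 and 12.72, 12.80 and 12.36 in distal 1, 2 and 3. Its difference in the 4 libraries was 0.34 (95% interval 0.06 to 0.61, limma adjusted p = 0.0907). It passed there after centring (limma adjusted p = 0.0482) or with genes of low mean left out. It also passed in the 6 libraries with array weights, a fit that rested mostly on proximal 2 and distal 1. Col1a2, the partner chain, differed by 0.20 (95% interval -0.12 to 0.52) and Col3a1, of type III, by 0.23 (-0.11 to 0.56). The type V chains, which start fibril assembly, differed by 0.39 for Col5a1 (0.03 to 0.75) and 0.09 for Col5a2 (-0.23 to 0.40). Dimmer probe sets differed by 0.48 and 0.38 for Col5a1 and by 0.36 for Col5a2. Col14a1, a collagen of the fibril surface, had the only negative difference of the 12 in the 4 libraries, -0.18 (-0.62 to 0.26).

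Both chains of type IV collagen had like values across libraries and stood highest in 1 of them. Col4a1 measured 11.88, 11.73 and 11.74 in proximal 1, 2 and 3, and 11.85, 12.34 and 11.87 in distal 1, 2 and 3. Col4a2 measured 11.70, 11.59 and 11.58 in proximal 1, 2 and 3, and 11.60, 12.20 and 11.65 in distal 1, 2 and 3. Distal 2 lay 0.46 and 0.50 above the next library for these genes, while the other 5 libraries of each fell within a narrow band. In the 4 libraries the differences were 0.36 (SE 0.18, limma adjusted p = 0.229) and 0.32 (SE 0.21, limma adjusted p = 0.353), and without distal 2 they were 0.11 and 0.01. The dimmer probe set of Col4a1 differed by only 0.10 in the 4 libraries. It too was highest in distal 2 (11.02), but distal 1 (10.53) lay below proximal 2 and 3 (10.64 and 10.71). Col4a1 and Col4a2 lie head to head on chromosome 8 of GRCm38.p6, and the RefSeq starts used for their windows are 21 bases apart. Their windows of 300 bases are shown because these genes gave like values and share the region between their starts: Col4a1 at chr8:11312777-11313076 on the minus strand and Col4a2 at chr8:11312555-11312854 on the plus strand. Capitals mark the 78 bases that both windows hold, each on its own strand:
Col4a1: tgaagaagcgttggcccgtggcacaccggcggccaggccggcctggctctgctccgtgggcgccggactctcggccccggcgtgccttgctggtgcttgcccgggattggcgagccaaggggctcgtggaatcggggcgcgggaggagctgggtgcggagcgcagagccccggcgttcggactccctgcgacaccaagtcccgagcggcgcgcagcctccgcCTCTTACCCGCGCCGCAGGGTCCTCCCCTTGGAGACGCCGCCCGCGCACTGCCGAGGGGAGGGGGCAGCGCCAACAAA
Col4a2: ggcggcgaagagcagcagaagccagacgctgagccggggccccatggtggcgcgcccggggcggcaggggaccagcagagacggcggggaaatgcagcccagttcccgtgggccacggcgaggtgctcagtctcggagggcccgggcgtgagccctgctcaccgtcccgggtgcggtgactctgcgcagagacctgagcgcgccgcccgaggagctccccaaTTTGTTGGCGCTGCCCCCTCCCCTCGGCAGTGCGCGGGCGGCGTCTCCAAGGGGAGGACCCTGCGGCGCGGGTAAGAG

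In these letters and their complement the Col4a1 window holds 1 CCAAT box and 1 GC box, the Col4a2 window 1 CCAAT box and 3 GC boxes, and neither holds a TATA box. Members were counted once per gene, by their first listed window, while the share over all counts every window. The CCAAT box was in 6 of the 24 members with a window (25%) and 37.4% of all 32851 windows. The GC box was in 10 of 24 (41.7%) and 35.7% of all, and the TATA box in 4 of 24 (16.7%) and 13.6% of all. These are letter matches only.

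Of the type VI collagens, Col6a1 and Col6a2 were highest in distal 3. Col6a3 and the type XV gene Col15a1 were highest in distal 2, as the type IV chains were. Col6a1 measured 12.22, 11.91 and 12.01 in proximal 1, 2 and 3, and 12.28, 12.28 and 12.32 in distal 1, 2 and 3, so the labelled groups did not overlap. Its difference was 0.25 as labelled (95% interval -0.03 to 0.52) and 0.32 in the 4 libraries (0.05 to 0.59, limma adjusted p = 0.0967). It passed there with genes of low mean left out. With array weights, which favoured proximal 2 and distal 1, it also passed in the 6 libraries. Col6a2, its neighbour on chromosome 10, measured 11.66, 11.44 and 11.50 in proximal and 11.58, 11.59 and 11.89 in distal libraries, with distal 3 the highest for both chains. Col6a3 measured 10.70, 10.57 and 10.65 in proximal and 10.75, 11.06 and 10.77 in distal libraries, again without overlap. Col15a1, a collagen of basement membrane zones, differed by 0.19 as labelled and 0.34 in the 4 libraries (limma adjusted p = 0.149).

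The other 10 elastic fibre and proteoglycan genes did not pass in either form. Postn, which encodes the matricellular protein periostin, was the flattest, with 12.70, 12.55 and 12.58 in proximal and 12.61, 12.58 and 12.54 in distal libraries, and an interval of the 4-library difference of -0.23 to 0.29. Sparc, a collagen-binding matricellular protein, differed by 0.08 as labelled and 0.20 in the 4 libraries (-0.12 to 0.52), and Dpt, dermatopontin, by 0.00 and 0.07 (-0.35 to 0.48). The crosslinking enzymes differed by 0.22 for Loxl1 and -0.26 for Lox in the 4 libraries, and Fbln2, a basement membrane fibulin, by -0.28. The group's median difference was -0.05 as labelled and 0.16 in the 4 libraries. The labelled median turned to 0.02 after centring, so its sign was not settled.

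Efemp1, which encodes fibulin-3, was set apart by 1 library. It measured 11.64, 11.31 and 11.44 in proximal 1, 2 and 3, and 11.11, 10.42 and 11.53 in distal 1, 2 and 3. Distal 2 lay 0.69 below the next lowest library. The difference was -0.44 as labelled (SE 0.28) and -0.61 in the 4 libraries (SE 0.24, limma adjusted p = 0.138), and -0.27 without distal 2.

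Among the fibroblast markers, differences were small and of both signs. The median was -0.12 as labelled and -0.08 in the 4 libraries, and 0.01 in the 4 libraries after either scaling. Pdgfra, the receptor for platelet-derived growth factor that marks gut fibroblasts, measured 11.53, 11.45 and 11.58 in proximal 1, 2 and 3, and 11.25, 11.36 and 11.41 in distal 1, 2 and 3. Its proximal values all exceeded its distal values, with a difference of -0.18 (SE 0.10, limma adjusted p = 0.824). In the 4 libraries the difference was -0.21 (SE 0.11, limma adjusted p = 0.263). The other probe sets of Pdgfra differed by -0.44 and -0.88 there, but their labelled groups overlapped. Thy1, a surface glycoprotein, measured 9.41, 9.44 and 9.48 in proximal and 9.32, 8.91 and 9.19 in distal libraries. Its labelled groups did not overlap, with a difference of -0.30 (SE 0.13, limma adjusted p = 0.824), and of -0.14 in the 4 libraries without distal 2. Vim, the intermediate filament of mesenchymal cells, differed by 0.04 as labelled and 0.13 in the 4 libraries (-0.18 to 0.44). Pdgfrb, a receptor shared with pericytes, differed by -0.07 and 0.04 (-0.24 to 0.33).

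Distal 2 was the lowest library for several of these markers. Igfbp4, a binding protein of insulin-like growth factors, measured 11.41, 11.26 and 11.12 in proximal 1, 2 and 3, and 11.27, 10.59 and 11.11 in distal 1, 2 and 3. Cygb, cytoglobin, measured 9.66, 9.57 and 9.49 in proximal and 9.52, 9.15 and 9.58 in distal libraries. Distal 2 lay 0.52 and 0.34 below the next library for these genes and 0.28 below for Thy1. With each gene set relative to its mean over libraries, the median of the 10 markers in distal 2 was -0.19, and that of the 12 collagens 0.23. Lists of other cell types were also low in distal 2, with -0.23 over 12 endothelial, -0.56 over 8 macrophage and -0.72 over 8 adipocyte markers, and smooth muscle stood at 0.12. Their part in the fibroblast values was not tested.

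In a large share of the 36 genes the libraries labelled proximal 1 and distal 1 were the highest. By the probe sets used this was so for 14 of 36 (38.9%), against 7.64% of all genes. These were 9 of 14 elastic fibre and proteoglycan genes, 5 of 10 fibroblast markers and 0 of 12 collagens. A dimmer probe set lacked the pattern for Dcn, Fbln1, Loxl1, Pdgfrb, Gsn, Pi16, Vim and Igfbp4. All dimmer probe sets of Mfap5 and Sparc had it. By the probe set used for Igfbp4 the lead was slight, with 11.27 in distal 1 against 11.26 in proximal 2. The pattern was noticed in these data and is given as a description with no test. These libraries share the number 1 in their titles, and the labels do not say whether a number marks an animal. The count was 15 of 36 after quantile normalization and also after centring, against 9.07% and 8.93% of all genes. Over the 14 genes the mean excess over the other libraries ran from 0.09 for Postn to 1.03 for Fbln1. Of 14 smooth muscle markers 3 had the pattern as deposited, 2 after quantile normalization and 1 after centring.

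Fbln1 and Mfap4, which passed in the 4 libraries, belong to these 14. Both also had proximal 1, distal 1 and distal 2 above the other 3 libraries. That pattern was found in 9 of the 36 genes and in 16.9% of all genes. Distal 2 measured 10.64 for Fbln1 and 9.40 for Mfap4, against 11.05 and 9.44 in distal 1. The libraries numbered 1 exceeded the other 4, distal 2 included, by a mean of 1.03 for Fbln1 and 0.70 for Mfap4. Of these libraries the 4-library fit holds distal 1 alone, and without it the differences were 0.76 for Fbln1 (limma adjusted p = 0.0498) and 0.53 for Mfap4 (limma adjusted p = 0.0751).

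Pi16, a peptidase inhibitor of adventitial fibroblasts, measured 9.37, 8.41 and 8.70 in proximal 1, 2 and 3, and 9.60, 8.53 and 8.26 in distal 1, 2 and 3. Its mean in the 2 libraries numbered 1 was 9.48, against 8.48 in the other 4. Mfap5, a microfibril glycoprotein, measured 9.54, 8.81 and 9.37 in proximal and 9.74, 8.76 and 8.36 in distal libraries. Without distal 1 the 4-library difference of Pi16 went from 0.51 to -0.03 and that of Mfap5 from 0.16 to -0.33. Both had wide intervals in those libraries, of -0.38 to 1.40 and -0.75 to 1.07. The dimmer probe set of Mfap5 differed by 0.40 in the 4 libraries. It kept distal 2 (8.83) above proximal 2 and 3 (8.49 and 8.78), so the change of sign depended on the probe set.

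Lum, lumican, a proteoglycan of collagen fibrils, measured 9.94, 9.49 and 9.44 in proximal 1, 2 and 3, and 9.82, 8.99 and 9.03 in distal 1, 2 and 3. Dcn, decorin, measured 12.52, 12.22 and 12.27 in proximal and 12.69, 12.14 and 12.05 in distal libraries. Its dimmer probe set did not put proximal 1 among the highest, with 8.86 there against 9.69 and 9.61 in distal 1 and 2. That probe set differed by 1.15 in the 4 libraries, against 0.17 for the one used. Gsn, the actin-severing protein gelsolin, measured 13.74, 13.33 and 13.26 in proximal and 13.71, 13.47 and 13.50 in distal libraries. The libraries numbered 1 exceeded the other 4 by a mean of 0.64 for Lum, 0.43 for Dcn and 0.34 for Gsn. Igfbp5, another binding protein of the same growth factors, measured 11.75, 11.55 and 11.51 in proximal and 11.83, 11.75 and 11.27 in distal libraries, and its other probe set had the opposite sign in the 4 libraries (-0.14 against 0.26).

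Markers of the exocrine pancreas stood out in the same libraries. All 10 measured acinar genes were highest in proximal 1 and distal 1, for example Cpa1, a digestive carboxypeptidase, with 12.42 and 12.43 against 5.69 to 6.16 in the other 4. Relative to the mean over libraries, their summed linear level was 2.37, 0.208 and 0.206 in proximal 1, 2 and 3, and 2.28, 0.55 and 0.376 in distal 1, 2 and 3. Mesothelial markers did not follow this, with median deviations of 0.26, -0.24 and -0.15 in proximal and 0.08, -0.34 and 0.38 in distal libraries. Epithelial markers had -0.13, 0.07 and 0.09 in proximal and -0.10, -0.08 and 0.12 in distal libraries, and so were lowest in proximal 1 and distal 1. The part of these cell types in the values of the 14 genes, Fbln1 and Mfap4 included, was not tested.

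**Figure D4:**
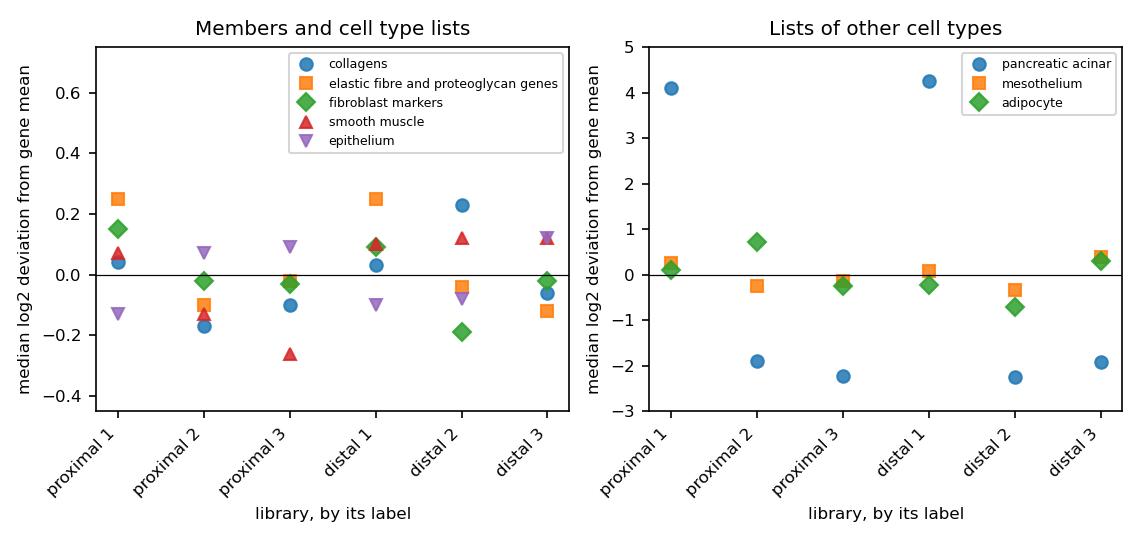
Points are the median over a list of each gene's log2 value minus its mean over the 6 libraries, by library label, for the 3 member groups with smooth muscle and epithelium (left) and for pancreatic acinar, mesothelial and adipocyte markers (right, wider axis). Elastic fibre and proteoglycan genes stand at 0.25 in proximal 1 and distal 1, collagens are highest in distal 2, and acinar markers are high in proximal 1 and distal 1.

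Some genes of the wider matrix differed by far more than any of the 36. In the 4 libraries, 51 of 226 other matrix and fibroblast genes passed by limma (22.6%, against 19.2% of all genes), 28 toward distal and 23 toward proximal libraries. After quantile normalization 56 passed, 36 of them toward distal libraries, and after centring 56, with 37 toward distal. Without proximal 2 or proximal 3 only Thbs4 and Hmcn1 passed, without distal 1 there were 26 calls, and without distal 2 there were 6, Thbs4 among them. As labelled 0 of the 226 passed, with 10 at an unadjusted p of 0.05. Thbs4, which encodes a thrombospondin of muscle and tendon matrix, measured 12.65, 7.90 and 7.88 in proximal 1, 2 and 3, and 12.95, 12.72 and 7.73 in distal 1, 2 and 3. Its 4-library difference was 4.94 (SE 0.12, limma adjusted p = 0.000109). Hmcn1, which encodes the fibulin relative hemicentin-1, measured 9.40, 6.77 and 6.46 in proximal and 9.86, 9.68 and 6.30 in distal libraries, a 4-library difference of 3.16 (SE 0.15, limma adjusted p = 0.000514). For both genes proximal 1 lay with distal 1 and 2, and distal 3 with proximal 2 and 3.

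Genes were named by rule from each list, and where a count was 5 or fewer its other members are also named, chosen after their values were seen. Of 51 other proteoglycans and glycoproteins, 8 were higher in distal libraries, among them Abi3bp (1.62) and the keratan sulfate proteoglycan Omd (1.38). The 3 higher in proximal libraries were the matrilin Matn2 (-1.51), Srpx (-1.08) and Smoc1 (-0.77). Of 18 other elastic fibre genes 2 were higher in each direction: Hmcn1 and the elastin gene Eln (0.46) in distal, Fbln7 (-0.93) and Adamtsl2 (-0.88) in proximal libraries. Of 30 other collagens, Col8a1 (1.48), Col16a1 (1.16) and Col27a1 (0.70) were higher in distal libraries. The 5 higher in proximal libraries were Col6a4 (-1.80), Col19a1 (-1.38), the basement membrane chain Col4a5 (-0.66), Col6a5 (-0.58) and Col23a1 (-0.58). Of 24 genes of collagen processing only the prolyl hydroxylase P3h2 (0.95) and the procollagen protease enhancer Pcolce2 (-1.14) passed, a share of 8.33%. The collagen chaperone Serpinh1 (-0.23) and the prolyl hydroxylase subunits P4ha1 (0.26) and P4hb (-0.18), also named after their values were seen, were among the 22 that did not pass.

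Of 26 matrix proteases and inhibitors, 3 were higher in distal libraries, the proteases Adamts15 (1.64) and Adamts9 (1.08) and the inhibitor Timp4 (2.10). The 2 higher in proximal libraries were the collagenase Mmp13 (-1.84) and the gelatinase Mmp9 (-2.38). Of 22 matrix receptors, the integrin chains Itga1 (0.99) and Itga8 (0.91) were higher in distal and Itgb5 (-0.66) and the hyaluronan receptor Cd44 (-0.93) in proximal libraries. Of 23 genes of TGF-beta and PDGF signalling, 5 were higher in distal libraries: the ligands Tgfb2 (0.86), Pdgfd (0.64) and Pdgfa (0.48), the transducer Smad4 (0.62) and Ccn2 (0.84). The ligand Pdgfc (-1.38) and the receptor Acvrl1 (-0.51) were higher in proximal libraries. Of 32 other gut fibroblast genes 10 passed (31.2%), 4 toward distal and 6 toward proximal libraries. The former were the BMP antagonist Grem1 (1.54), the Wnt modulators Sfrp2 (1.41) and Sfrp1 (0.86) and the Wnt enhancer Rspo3 (0.75), and the protease Adamdec1 (-1.32) and the chemokine Cxcl14 (-1.21) were among the latter. The limma adjusted p of the 30 genes named by rule from these lists ran from 0.000109 for Thbs4 to 0.0411 for Pcolce2. Among the genes named from these lists, for Col19a1, Fbln7, Adamtsl2, Mmp13, Col6a5, Srpx and Mmp9 the mean of the lower pair was under 6.54, the first quartile of gene values.

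**Figure D5:**
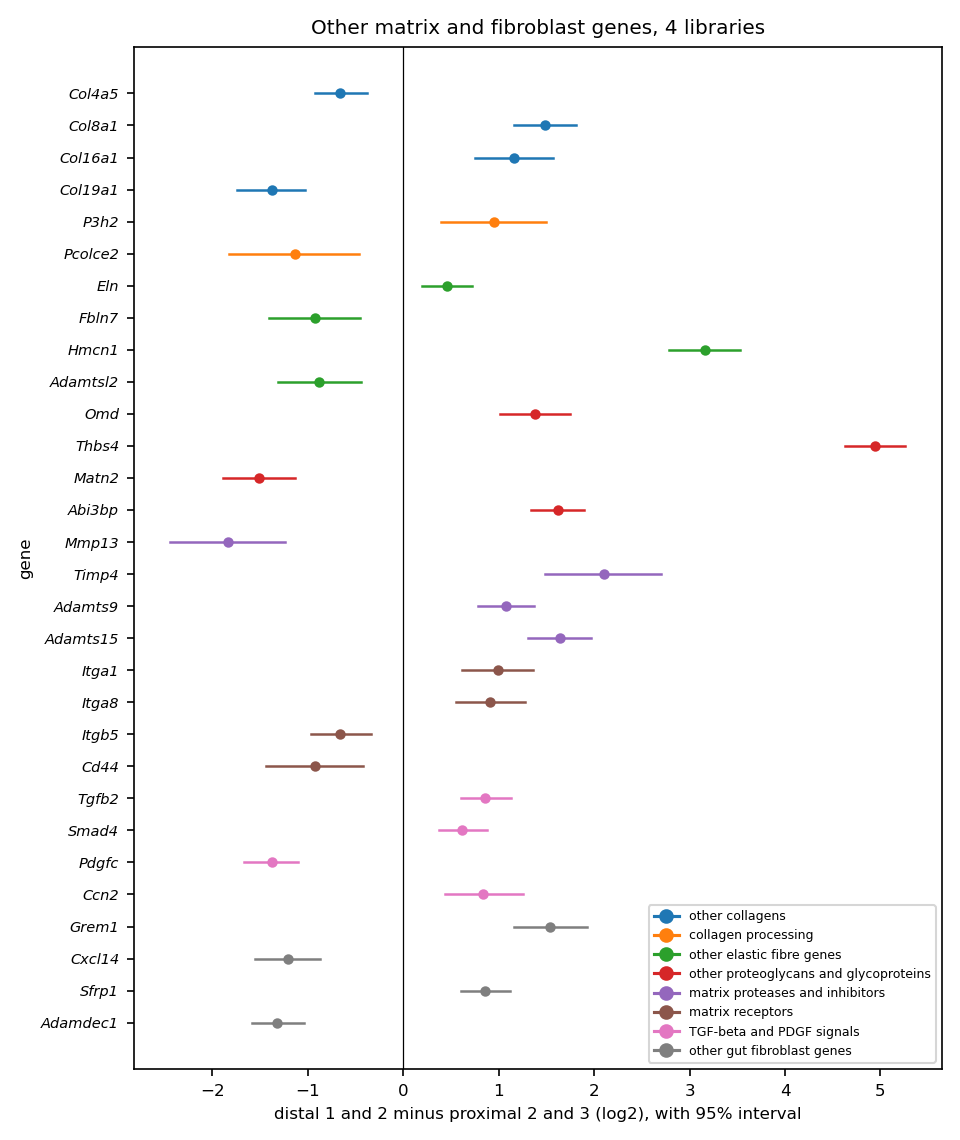
Points are 4-library differences in log2 units, distal 1 and 2 minus proximal 2 and 3, with 95% limma intervals as bars, for the 30 named genes of 8 other matrix and fibroblast lists, coloured by list. Thbs4 at 4.94 and Hmcn1 at 3.16 lie far to the right, and every list has genes on both sides of 0.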

How the data were processed

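Tissue was homogenised in Trizol and its total RNA amplified to cDNA and labelled with biotin, per the labels' protocols. The log2 expression values of each probe set were deposited by the authors after RMA in Partek 6.5, per the submitters' processing notes. The log2 scale was read from RMA and the range of 2.91 to 15.16. RMA usually makes arrays alike, which can hide a change common to most genes.

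Of 45101 probe sets, 64 controls, 932 with several symbols and 9160 with no listed gene were left out. Symbols came from the platform annotation, updated by gene identifier for 34741 of 34945 probe sets with RefSeq names of GRCm38.p6. The brightest probe set stood for each gene. Among the 36 genes 24 had more than 1 probe set, and directions in the 4 libraries were mixed for Col14a1, Col6a2, Fbln2, Igfbp5 and Lox.

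Libraries were grouped by title. Differences between distal and proximal were fitted by limma 3.58.1, R 4.3.3 (lmFit, eBayes, two-sided, Benjamini-Hochberg over 18193 genes, threshold 0.05), tested on simulated data. Labels do not tie numbers to animals, so p-values measure only how far these libraries spread, which may be technical. Members and lists were chosen with earlier results of these data known. Of each other list, up to 4 genes with the smallest p that passed in the 4 libraries were named; Hoxb13 and Cpa1 were named after their values were seen. Alternatives were the 4 libraries, scalings, a filter, all probe sets, variance prior, array weights, a replicate block and leaving out each library. Promoter windows are RefSeq's, matched for 24 of 37 genes.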

Additional observations from a re-analysis of the deposited data

How the results depend on the processing

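As labelled, 0 genes were called under the replicate block, quantile normalization, centring, the low filter (9099 genes kept), the mean of probe sets, the trended and robust prior, and leaving out each of the 6 libraries. With the replicate block the medians stayed at 0.15 for collagens, -0.05 for elastic fibre and proteoglycan genes and -0.12 for fibroblast markers. Same-numbered libraries had deviations from label means correlated across genes at 0.677, -0.448 and 0.678 for numbers 1, 2 and 3. Those means include proximal 1 and distal 3, which went against their labels. The correlations therefore cannot show whether the numbers pair libraries. The main fit had no block because the labels give no pairing by animal. Array weights called 5579 genes and 7 members, with a median of 0.28 for elastic fibre and proteoglycan genes. The weights were 6.72 for proximal 2 and 2.5 for distal 1, against 0.291 to 1.57 for the other libraries. That fit thus rested mostly on proximal 2 and distal 1.

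Without proximal 1 and distal 3, 3494 genes and 5 members were called, with medians of 0.31, 0.16 and -0.08 for the 3 groups in that order. After quantile normalization these were 3455, 4, 0.36, 0.21 and 0.01, and after centring 3440, 5, 0.39, 0.26 and 0.01. With genes below a mean set by the median gene left out, they were 3263, 6, 0.31 and 0.17, with 29 members tested. Mfap4 was -0.08 as labelled and 0.55, 0.64 and 0.64 in these libraries, as deposited, after quantile normalization and after centring. The cause of these changes was not tested beyond the libraries left out.

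Over all fits that left out 1 library, from the 6 or from the 4, calls ran from 0 to 1633 for all genes and from 0 to 2 for members. Medians ran from 0.07 to 0.35 for collagens, -0.14 to 0.36 for elastic fibre and proteoglycan genes and -0.16 to 0.10 for fibroblast markers. The sign of the 4-library difference was not that of the labelled one for 8 members that passed in neither form. It also changed for Mfap4, which passed in the 4 libraries. In the 4 libraries the median half-width of the 95% interval was 0.35 over the members.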
